A study of Homo sapiens with 30 samples.

Results

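The comparison asked whether RNAs entered the TIA1 granule fraction to a different extent in cells that express the Welander distal myopathy form of TIA1 than in cells that express the wild-type form, before any oxidative stress was applied. It used 12 of the 30 libraries of the series, in 4 of its 10 groups, with 3 replicates (R1 to R3) in each. They were chosen by their labels: tetracycline-treated cells without arsenite, cytosol or granule fraction, wild-type (WT) or Welander distal myopathy (WDM) line. The quantity is the interaction of line and fraction, that is, granule minus cytosol in WDM, minus granule minus cytosol in WT, on the log2 scale. A positive value means that an RNA was more enriched in, or less depleted from, the granule fraction of the WDM line.

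All 4 groups are derivatives of HEK293, an established human embryonic kidney cell line, that hold a tetracycline-inducible transgene for GFP fused to TIA1a. WT cells carry the unmutated TIA1a and WDM cells carry the mutant one. Both lines were given tetracycline in all 4 groups, and none of the 4 received arsenite. Cytosol RNA came from cell extracts. The granule fraction was a high-speed pellet pulled down through GFP, and the series' design text describes that preparation for cells given arsenite. A second set of 12 libraries from the same lines, which received tetracycline and, for 60 min, sodium arsenite at 0.5 mM, served for comparison. Whether each line is a single clone, and whether replicates are separate cultures, is not given in the sources used here, so p-values measure only the spread between these libraries.

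TIA1 is an RNA-binding protein with RNA recognition motifs and a prion-like tail, which binds uridine-rich stretches of pre-mRNA and of 3′ untranslated regions (UTRs). It regulates splicing and translation, and it is one of the proteins that nucleate stress granules, assemblies of stalled messenger ribonucleoproteins. Long and poorly translated RNAs are usually rich in such granules, whereas short mRNAs under active translation are usually poor in them. The Welander mutation lies in the prion-like tail and causes a late-onset disease of distal muscle.

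Because uridine-rich stretches are the known ligand, the 3′ UTRs of the named genes were searched for TTTTT on the sense strand. Every start was counted, overlaps included. The lines below show, for the gene that was called, for the gene nearest to the threshold among those with lower values, and for one of those with higher values, the 30-base window of the 3′ UTR with the longest run of T. Sequences are from GRCh38 with GENCODE v44 transcripts, 5′ to 3′ on the strand of the gene. Capitals mark runs of at least 5 T.
CALCB, chr11:15078246-15078275, plus strand: tatttgctgtgcatcaTTTTTatatttaat
COL5A2, chr2:189032650-189032679, minus strand: ttgtgtctcaatacTTTTTTTTTcttaatt
TMEM41B, chr11:9282934-9282963, minus strand: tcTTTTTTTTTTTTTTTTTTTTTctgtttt
The 3′ UTR of CALCB was 580 bases long and held 2 starts of TTTTT, or 3.45 per 1000 bases. COL5A2 had 14 starts in 2172 bases, or 6.45 per 1000, and TMEM41B had 64 in 2770 bases, or 23.1 per 1000. Among 11271 tested genes with a 3′ UTR of at least 30 bases, 84.1% held the motif and the median density was 6.04 per 1000 bases. CALCB therefore lay below the median density and TMEM41B far above it. TMEM41B was not called, and it had the highest density of the uncalled genes with higher values named below. CTSV had 6.72, OOEP 4.37, NXT2 12.4 and TMEM106B 11.9 per 1000 bases. A match of letters is a description and not a binding site.

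Depth and sample identity bear on every value that follows. Total counts ran from 7971585 to 18884843 in the 6 cytosol libraries and from 5906167 to 25176605 in the 6 granule libraries, so that 3 counts corresponded to 0.124 to 0.513 CPM (counts of a gene relative to the TMM-scaled library total). Of 14 markers of the HEK293 line, 12 had a median of at least 1 CPM, with a summed level of 1304 to 1638 CPM in cytosol and 683 to 932 CPM in granule libraries. Of 16 markers of blood, liver, muscle, fibroblasts, endothelium and neural cells, 13 had a median under 1 CPM, and their summed level was 33.3 to 43.6 CPM in cytosol and 50.6 to 68.1 CPM in granules. CD3E and HBB were at 0 in all 12 libraries, and the exceptions were SNAP25, LUM and MBP. TIA1 itself had at most 1 count in a library, which is under the floor, and 3 counts over all 30 libraries. The cells hold an inducible TIA1a transgene, and why TIA1 had so few counts was not tested. TIA1 therefore could not be used to check the labels. Its paralog TIAL1 had an interaction of -0.29 (adjusted p 0.833, edgeR with Benjamini-Hochberg adjustment). In bulk fractions, fewer cells or granules and less RNA per cell or granule cannot be told apart.

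One RNA was called as different between the lines in its granule enrichment. Of 18141 genes tested, CALCB alone was called at an adjusted p under 0.05, which is 0.00551% of the genes, and no gene was called lower. CALCB (ENSG00000175868, GRCh38 chromosome 11, 14904997 to 15082342, plus strand) encodes the precursor of beta-CGRP, a secreted neuropeptide of the calcitonin family. At an unadjusted p under 0.05 there were 929 genes, 5.12% of those tested, 546 with a higher (3.01%) and 383 with a lower (2.11%) value in WDM. That count moved to 2804 without WT cytosol R1, 2300 without WDM granule R1, 1678 without WDM cytosol R2 and 1425 without WT granule R1. It was 563, 577, 566 and 574 without WT cytosol R3 or R2 or WDM granule R3 or R2.

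CALCB had 9.20, 10.3 and 13.1 CPM in the 3 cytosol libraries of WT and 10.9, 12.1 and 12.6 CPM in those of WDM. In the granule fraction it had 3.93, 5.08 and 5.33 CPM in WT and 38.8, 28.9 and 32.0 CPM in WDM. The means were 10.9 ± 2.0 CPM in WT cytosol, 11.9 ± 0.89 in WDM cytosol, 4.78 ± 0.748 in WT granules and 33.3 ± 5.09 in WDM granules (SD, n = 3 each). The cytosol levels of the lines overlapped, while every WDM granule library was above every WT granule library. The gene was thus depleted from the WT granule fraction and enriched in the WDM one. Granule minus cytosol was -1.14 in WT (edgeR adjusted p 7.93e-06) and 1.47 in WDM (edgeR adjusted p 2.11e-08). The granule fractions differed by 2.75 on the log2 scale between lines (edgeR adjusted p 7.89e-12), whereas the cytosols differed by 0.14 (edgeR adjusted p 0.765).

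The interaction of CALCB was 2.61, with a 95% interval of 2.07 to 3.16 (edgeR adjusted p 1.65e-06). That is a 6.12-fold difference in enrichment, with an interval of 4.20 to 8.92. It rested on 23 to 488 counts per library. The call held under each of the 20 alternatives run for it, with values from 2.47 to 2.74 and adjusted p-values from 2.26e-17 to 0.000516. In untreated cytosol, in 6 libraries that the comparison did not use, CALCB had 13.2, 10.2 and 10.1 CPM in WT and 11.1, 9.97 and 12.6 CPM in WDM, which also overlapped.

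The same contrast in the 12 arsenite libraries shares no library with the first. There CALCB had 9.03, 8.65 and 7.33 CPM in WT cytosol and 12.1, 10.1 and 11.2 CPM in WDM cytosol. Its granule levels were 5.58, 5.98 and 4.25 CPM in WT and 27.5, 18.2 and 20.1 CPM in WDM. Neither fraction overlapped between the lines, and the gap was wider in granules. The interaction with arsenite was 1.64, with a 95% interval of 1.12 to 2.16 (edgeR adjusted p 0.0086), a 3.12-fold difference, and CALCB was again the only gene called among 18141, or 0.00551%. Without WT arsenite granule R3 the value was 1.5 and the adjusted p 0.0799 (edgeR), so the call then ended. Without WDM arsenite cytosol R2 there were 2 calls, CALCB and CACNG2, a calcium channel subunit gene that was named after its value was seen.

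**Figure D1:**
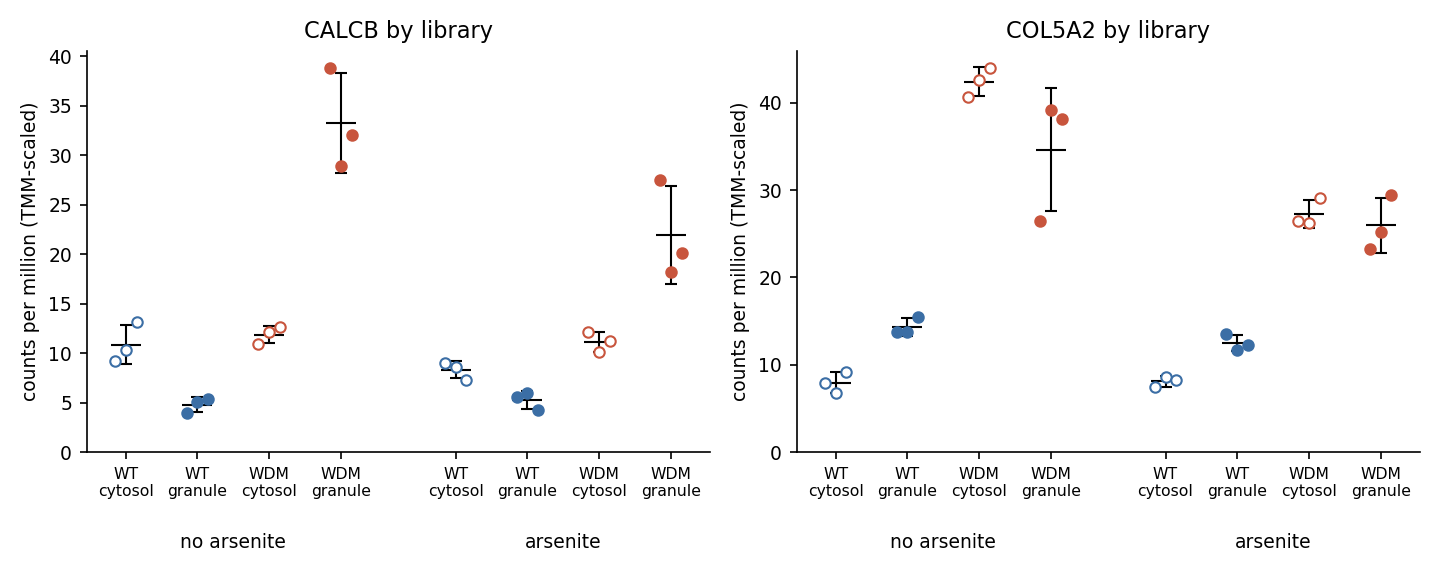
TMM-scaled CPM of CALCB (left) and COL5A2 (right) in each of the 24 libraries of tetracycline-treated cells, by line, fraction and arsenite; points are libraries (open, cytosol; filled, granule fraction; blue, WT; red, WDM) and black bars are the mean ± SD of 3. CALCB is at 28.9 to 38.8 CPM in WDM granules without arsenite and at 13.1 CPM or less in the WT groups and both WDM cytosol groups, and COL5A2 is higher in WDM in both fractions.

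The surroundings of CALCB on chromosome 11 were examined, with genes chosen after the CALCB value was seen. CALCA, the paralog that encodes calcitonin and alpha-CGRP, lies within the annotated span of CALCB, on the other strand. It had no count in 10 of the 12 libraries and at most 0.0833 CPM. The tested neighbours RRAS2, COPB1, PSMA1, PDE3B, CYP2R1 and INSC had interactions from -0.30 for INSC to 0.42 for COPB1, and none was called. By annotation 2.92% of the exon length of CALCB overlaps the pseudogene CALCP on the same strand and none overlaps a gene on the other strand. Where reads of such shared exons were counted is not given in the sources used here.

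Other genes stood apart by smaller amounts and were not called. The 5 with the smallest p among higher values were TMEM41B, CTSV, OOEP, NXT2 and TMEM106B, and their adjusted p was 0.833 (edgeR). TMEM41B is a lipid scramblase of the endoplasmic reticulum needed for autophagy. It had 82.4, 89.3 and 95.1 CPM in WT cytosol and 72.8, 80.8 and 83.9 CPM in WDM cytosol, against 44.4, 38.2 and 36.0 CPM in WT granules and 51.5, 64.6 and 68.2 CPM in WDM granules. Cytosol levels overlapped and granule levels did not. Its interaction was 0.81 without arsenite and 0.01 with it.

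TMEM106B, a lysosomal membrane protein, had a similar arrangement. Its cytosol levels were 72.1, 75.3 and 73.4 CPM in WT and 75.7, 70.2 and 80.4 CPM in WDM, and its granule levels were 39.6, 28.7 and 24.8 CPM in WT and 52.4, 71.5 and 79.3 CPM in WDM. The interaction was 1.12 without arsenite and -0.05 with it. With no filter on low counts, which raised the number of genes tested to 39037, TMEM106B was called with a value of 1.21 (edgeR adjusted p 0.00147).

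CTSV encodes cathepsin V, a lysosomal protease. It had 50.5, 59.2 and 67.7 CPM in WT cytosol, 48.0, 53.9 and 46.6 CPM in WDM cytosol, 22.4, 19.8 and 21.5 CPM in WT granules and 28.7, 30.5 and 30.8 CPM in WDM granules. The granule levels did not overlap. Its interaction was 0.76 without arsenite and 0.68 with it (unadjusted edgeR p 0.000315 and 0.000895), so it was the one of these 5 genes with values of similar size in both sets of libraries.

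OOEP, known from the maternal complex of the oocyte, and NXT2, a member of the NTF2-like nuclear export factors, were at low levels in granules. OOEP had 0.826 to 0.854 CPM in WT granules and 1.61 to 2.17 CPM in WDM granules, against 11.4 to 19.3 CPM in the 6 cytosol libraries. NXT2 had 1.5 to 2.44 CPM in WT granules and 3.26 to 3.81 CPM in WDM granules, against 13.4 to 21.8 CPM in cytosol. Their interactions were 1.43 and 1.10 without arsenite and -0.55 and -0.24 with it. OOEP shares 31.8% of its exon length with genes on the other strand.

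Among lower values COL5A2 came nearest to the threshold. COL5A2 (ENSG00000204262, chromosome 2, 189031898 to 189225312, minus strand) encodes the alpha-2 chain of type V collagen, a fibril-forming collagen. It had 7.90, 6.77 and 9.20 CPM in WT cytosol and 13.8, 13.7 and 15.5 CPM in WT granules, and 40.7, 42.6 and 44 CPM in WDM cytosol and 26.5, 39.2 and 38.1 CPM in WDM granules. Levels were higher in WDM in both fractions without overlap, by 2.42 on the log2 scale in cytosol (edgeR adjusted p 2.16e-12) and by 1.27 in granules (edgeR adjusted p 5.17e-07). Granule minus cytosol was 0.86 in WT (edgeR adjusted p 2.34e-05) and -0.29 in WDM (edgeR adjusted p 0.0672).

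The interaction of COL5A2 was -1.15, with a 95% interval of -1.59 to -0.71 (edgeR adjusted p 0.0861). It was called at -1.19 when counts were scaled by library size alone (edgeR adjusted p 0.0263), at -1.14 with the replicate number as a block (edgeR adjusted p 0.0373) and at -1.13 by DESeq2 (adjusted p 0.0062). With arsenite the interaction was -0.69 (unadjusted edgeR p 0.00254). Whether COL5A2 differs between the lines in enrichment thus depended on the fit.

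SSPN and 4 genes of low level completed the lower values, all with an adjusted p of 0.833 (edgeR). SSPN encodes sarcospan, a membrane protein of the dystrophin complex of muscle. It had 0.92, 0.954 and 1.59 CPM in WT cytosol, 1.37, 1.67 and 2.52 CPM in WT granules, 8.24, 8.73 and 7.78 CPM in WDM cytosol and 4.6, 5.73 and 5.39 CPM in WDM granules. As for COL5A2, both fractions were higher in WDM without overlap, and the interaction was -1.44 without arsenite and -0.84 with it. SSPN shares 15.1% of its exon length with genes on the other strand.

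The long noncoding RNAs LINC02145 and LINC01091, the microtubule-associated gene MTUS2 and the pseudogene PLEKHM1P1 had interactions of -2.16, -1.24, -1.02 and -0.74. LINC02145 had 0.173 to 0.460 CPM in WT cytosol and 0.679 to 1.33 CPM in WDM cytosol, against 4.27 to 6.66 CPM in WT granules and 3.43 to 4.32 CPM in WDM granules. Its cytosol values rested on 6, 2 and 3 counts in WT and 6, 7 and 25 counts in WDM. Most of these are near the floor of 3 counts, so its interaction is uncertain. MTUS2 had 1.82 to 2.61 CPM in WT cytosol and 2.13 to 4.10 CPM in WDM cytosol, against 14.9 to 19.8 and 12.7 to 15.9 CPM in granules. With arsenite the interactions of these 4 genes lay between -0.18 and 0.15. PLEKHM1P1 shares 95.2% of its exon length with other genes on its strand, so its counts are uncertain.

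**Figure D2:**
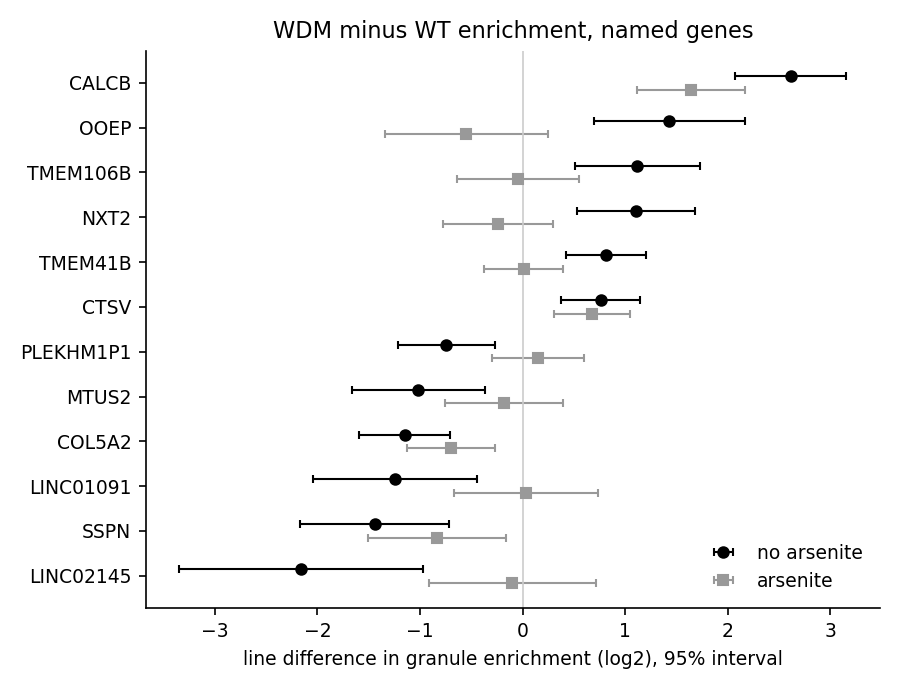
Line difference in granule enrichment (log2, WDM minus WT) of the 12 named genes without arsenite (black circles) and with arsenite (grey squares), each with its 95% interval from the edgeR fit. CALCB lies above 0 in both sets of libraries, at 2.61 and 1.64, and COL5A2, SSPN and CTSV keep their side of 0 with arsenite.

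Most genes lay close to equal enrichment in both lines. Among 12784 genes with a mean of at least 5 CPM in a group, the interaction was under 0.5 in size for 90.7% and at least 1 in size for 0.704%, and the central 90% ran from -0.513 to 0.466. The median half-width of the 95% interval was 0.48. 

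The lines differed in many RNA levels, and many of those differences were called in both fractions. In granules 1436 genes were called between the lines, 7.92% of those tested, 723 higher (3.99%) and 713 lower (3.93%) in WDM. In cytosol 1006 genes were called, 5.55%, 507 higher (2.79%) and 499 lower (2.75%). These comparisons share no library. Of the calls, 628 were common to both, which is 43.7% of the granule calls and 62.4% of the cytosol calls, and all 628 had the same direction. The number of granule calls was 833 without WDM granule R2, 786 without WDM granule R3, and 859 when only those 6 libraries were fitted. The number of cytosol calls was 1739, 617 or 571 without WT R1, R2 or R3 and 637 or 527 without WDM R1 or R3.

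A gene called in 1 fraction and not in the other was seldom shown to differ between them. Of 808 genes called in granules alone, 726 had the same sign in cytosol, 193 (23.9%) had an unadjusted interaction p under 0.05, and 1, CALCB, had a called interaction. Of 378 genes called in cytosol alone, 363 had the same sign in granules, 48 (12.7%) passed the unadjusted threshold, and 0 had a called interaction. The unadjusted share was 5.12% over all genes and 4.62% among genes called in both fractions. Genes called in 1 fraction alone were selected on values that enter the interaction, so their shares are a description. Over 12762 genes of at least 5 CPM and of known transcript length, the line differences in cytosol and granules had a Pearson r of 0.801 and a Spearman rho of 0.435 across genes. Genes are not independent replicates, and the points share the pair of lines but no library.

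Some genes with large line differences are given as examples. They were chosen after their values were seen. DOK6, an adaptor of receptor tyrosine kinases, had 0.173 to 0.537 CPM in WT cytosol and 29.4 to 48.2 CPM in WDM cytosol, and 0.909 to 1.03 CPM in WT granules and 127 to 161 CPM in WDM granules. Its interaction was 0.32. LGALS8, a galectin that marks damaged endosomes, had 38.2 to 46.4 CPM in WT cytosol and 3.41 to 6.64 CPM in WDM cytosol, and 19.5 to 26.6 CPM in WT granules and 2.59 to 2.94 CPM in WDM granules. Its interaction was 0.08, and 28.7% of its exon length lies under genes of the other strand. ANOS1, which encodes the extracellular matrix protein anosmin-1, was lower in WDM by 2.65 on the log2 scale in cytosol and by 2.43 in granules, with an interaction of 0.22. PCDH10, a protocadherin, had 0.954 to 1.92 CPM in WT cytosol and 21.5 to 28.4 CPM in WDM cytosol, and 1.92 to 3.08 CPM in WT granules and 21.1 to 28.6 CPM in WDM granules. Its line difference was 4.16 in cytosol and 3.43 in granules, and its interaction -0.73 (unadjusted edgeR p 0.0402, adjusted p 0.833). KC6 and LINC01099, noncoding RNAs, also differed less in granules, by 6.38 and 3.35 against 7.59 and 4.43 in cytosol. For GSTP1, a glutathione transferase, WT levels were at or under 3 counts in both fractions, so no difference in enrichment could be measured, although WDM had 101 to 124 CPM in cytosol and 8.73 to 20.7 CPM in granules.

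**Figure D3:**
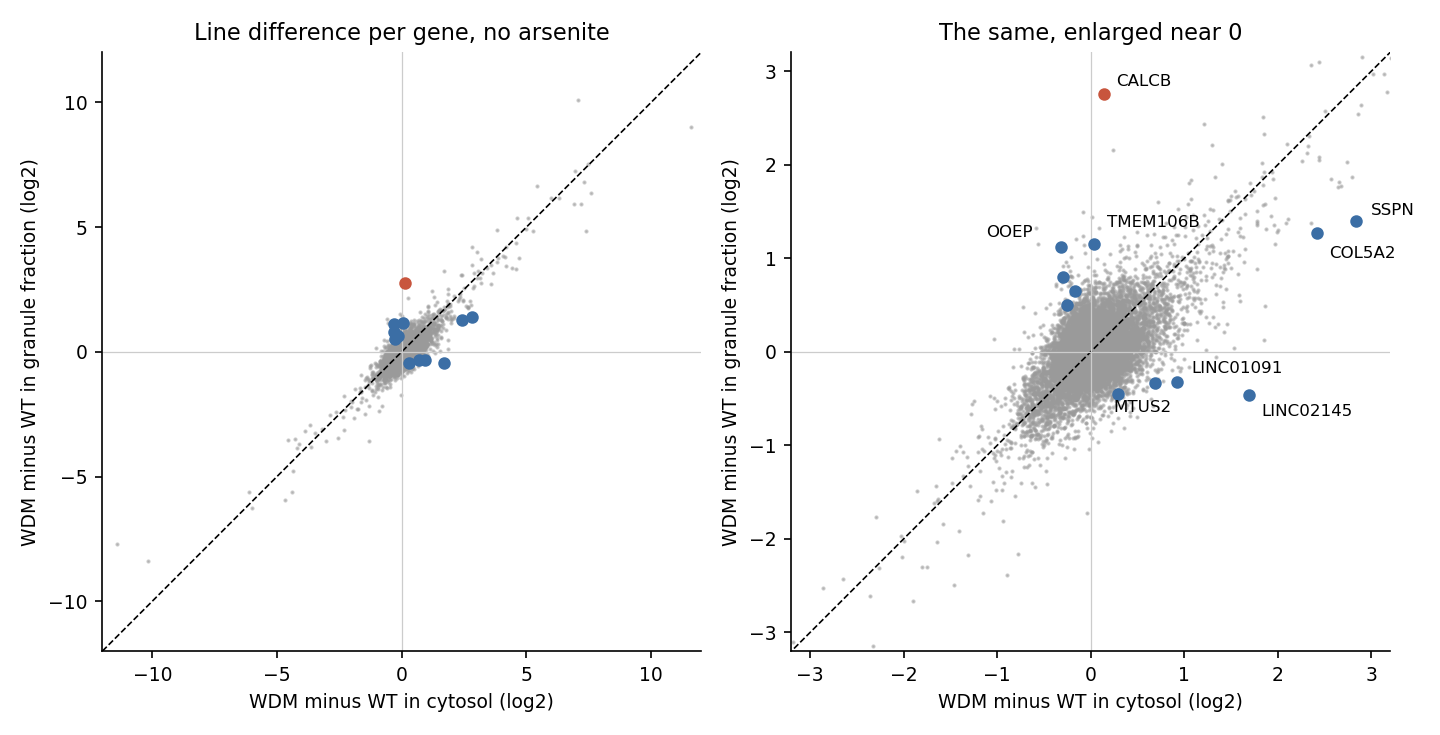
Line difference (log2, WDM minus WT) in cytosol (x) and in the granule fraction (y) without arsenite for 12762 genes of at least 5 CPM, whole (left) and enlarged near 0 (right); the dashed line is equality, blue points are the named genes and the red point is CALCB. Many genes with large differences lie near the line, COL5A2 lies below it at 2.42 in cytosol and 1.27 in granules, and CALCB lies above it at 0.14 in cytosol and 2.75 in granules.

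Line differences present in cells given neither tetracycline nor arsenite were followed through the fractions. Genes were picked from the 6 untreated cytosol libraries alone, at an adjusted p under 0.05 and a log2 difference of at least 1 in size. This gave 212 genes higher in WDM (1.4% of 15158 tested) and 183 lower (1.21%), of which 130 and 85 reached 5 CPM and were above the floor in all 4 groups. The 130 had median differences of 1.64 in tetracycline-treated cytosol and 1.52 in granules, and a median interaction of -0.191, with 41 above and 89 below 0. The 85 had medians of -1.18 and -1.22, and a median interaction of 0.0317, with 43 above and 42 below 0. Over all genes of at least 5 CPM the median interaction was -0.000661. At an unadjusted edgeR p under 0.05, 5 of the 130 were higher and 10 lower, and 2 of the 85 were higher and 1 lower. The shares over all genes tested were 3.01% and 2.11%. None of these genes had a called interaction, beside 0.00551% of all genes tested, so the absence of a call says little about them.

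A pattern across genes ran along granule enrichment itself. Genes of at least 5 CPM were divided into 5 equal groups (quintiles) by their granule enrichment in the arsenite libraries, which the comparison did not use. In the most depleted quintile, the median of granule minus cytosol was -1.86 in WT and -1.62 in WDM. In the most enriched quintile it was 1.91 in WT and 1.60 in WDM. Both ends were nearer to 0 in WDM, and the median interaction went from 0.255 in the first quintile through 0.104, -0.00797 and -0.119 to -0.300 in the last. By transcript length it went from 0.121 in the shortest quintile to -0.119 in the longest. By class of gene it was 0.0168 for 11333 protein-coding genes, -0.198 for 965 long noncoding RNAs and 0.454 for 102 processed pseudogenes, whose counts are uncertain where parent genes are nearly identical.

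The size of this pattern was within the spread between libraries. The log2 level of each gene was set relative to its mean over the 24 libraries of tetracycline-treated cells, those with arsenite included. For each library, the median of these values in the most enriched quintile minus that in the most depleted quintile was taken as an index. It was -1.52, -2.37 and -2.41 in WT cytosol and -1.39, -2.20 and -1.66 in WDM cytosol, and 1.38, 1.71 and 1.40 in WT granules and 1.79, 1.08 and 1.12 in WDM granules. WT cytosol R1 and WDM granule R1 stood apart from the other libraries of their groups, and the lines overlapped in both fractions. The interaction of the index was -0.513, and an exact two-sided permutation of line labels within each fraction, with 400 arrangements, gave p = 0.255. Leaving out a library gave -0.805 without WT cytosol R1 to -0.333 without WDM cytosol R1. The same index for long minus short transcripts gave -0.272 (exact permutation p = 0.255; both p-values are 0.255 after Benjamini-Hochberg adjustment over the pair).

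**Figure D4:**
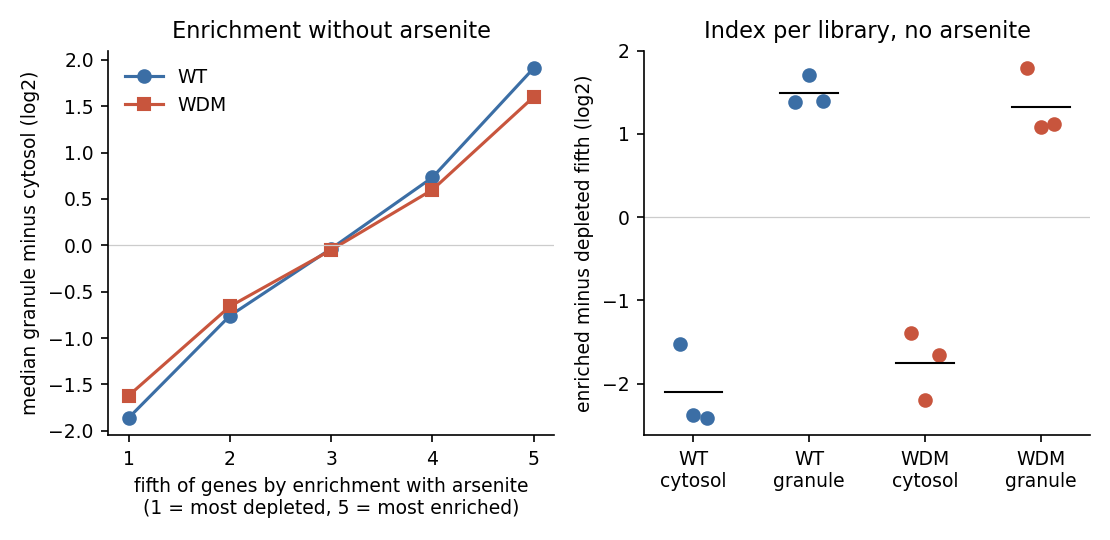
Left, median granule minus cytosol (log2) without arsenite in quintiles of genes ordered by enrichment in the arsenite libraries, for WT (blue) and WDM (red); right, the index of the most enriched minus the most depleted quintile (log2) in each of the 12 libraries, with group means as bars. The WDM curve runs from -1.62 to 1.60 inside the WT curve from -1.86 to 1.91, and the libraries of the lines overlap in both fractions.

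RNAs that are usually found in granules had a lower median enrichment in WDM, without any called member. The 18 long transcripts usually described as rich in stress granules had a median enrichment of 1.94 in WT and 1.27 in WDM. Their median interaction was -0.490, beside -0.0276 for all genes tested and -0.300 for the most enriched quintile described above. In that quintile 113 of 2553 genes were lower and 21 higher at an unadjusted edgeR p under 0.05. None of the 18 had an unadjusted p under 0.05. DYNC1H1, the heavy chain of cytoplasmic dynein, had 3981, 5085 and 3049 CPM in WT granules and 1986, 3536 and 3247 CPM in WDM granules, which overlapped, and an interaction of -0.65. KMT2A, a histone methyltransferase that shares 18.3% of its exon length with other genes on its strand, had an interaction of -0.90. The list's median ran from -0.775 without WT cytosol R1 to -0.260 without WDM cytosol R1, and was -0.269 after each library's trend with transcript length was removed.

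The median of nuclear-retained long noncoding RNAs lay on the same side of 0. Of 15, 11 were tested, 0 were called and 1 had a lower value at an unadjusted p under 0.05. The median interaction was -0.432, beside -0.300 for the most enriched quintile. It was -0.589 without WT cytosol R1, -0.239 without WT cytosol R3 and -0.270 with the length offset, and -0.0941 with arsenite. NEAT1, the scaffold of paraspeckles, had 137, 50.2 and 58.0 CPM in WT cytosol and 178, 66.9 and 154 CPM in WDM cytosol, against 2647, 2029.6 and 1494 CPM in WT granules and 1757, 1462 and 1545 CPM in WDM granules. Both fractions overlapped between lines. Its interaction was -1.07 (unadjusted edgeR p 0.0239, adjusted p 0.833). MALAT1, a nuclear speckle RNA with 83.7% of its exon length under genes of the other strand, had -0.63. The summed level of these RNAs in cytosol was 1248, 799 and 758 CPM in WT and 1484, 969 and 1279 CPM in WDM. Its part in the other results was not tested.

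Lists of short and highly translated mRNAs had medians on the other side of 0, again without a called member. For 80 tested ribosomal protein genes the median enrichment was -2.49 in WT and -2.18 in WDM and the median interaction 0.384, with 6 higher and 0 lower at an unadjusted p under 0.05, beside 3.01% and 2.11% over all genes. In the most depleted quintile described above, 257 of 2553 genes were higher and 0 lower at that threshold, with a median of 0.255. For 58 nuclear-encoded subunits of the respiratory chain it was 0.317, with 13 higher and 0 lower. UQCRH, a subunit of complex III, had 46.1, 40.3 and 47.6 CPM in WT granules and 65.8, 87.4 and 88.1 CPM in WDM granules without overlap, and an interaction of 0.68. For 51 replication-dependent histone genes the median was 0.428, with 9 higher and 0 lower. H3C10, which encodes histone H3, had 12.6, 14.3 and 15.0 CPM in WT granules and 12.9, 29.7 and 28.4 CPM in WDM granules, which overlapped.

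Genes of secretion and protein turnover had medians of similar size. The 32 genes of chaperones and translocation in the endoplasmic reticulum had a median interaction of 0.329, with 5 higher and 0 lower at an unadjusted p under 0.05. The signal peptidase subunit SPCS3 had 0.69. The 42 tested proteasome genes had 0.292, with 4 higher and 0 lower, and 17 housekeeping transcripts had 0.265, with 1 higher and 0 lower. Over all genes 3.01% were higher and 2.11% lower at that threshold. In the most depleted quintile 257 of 2553 were higher and 0 lower, with a median interaction of 0.255, so these lists were near that quintile. WDM granule R1 set the largest part of the range: without it the medians were 0.610 for ribosomal protein genes, 0.535 for the respiratory chain, 0.694 for histones, 0.563 for the endoplasmic reticulum, 0.440 for proteasome genes and 0.538 for housekeeping transcripts. The lowest medians without a library were 0.236, 0.208, 0.259, 0.183, 0.194 and 0.152 in that order, each without WDM granule R2 or R3. With arsenite the medians of the same lists lay between -0.160 and 0.0415.

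Transcripts of the mitochondrial genome had the largest median of the 23 lists and the largest median half-width of the 95% interval, 2.03. All 15 were tested, with a median enrichment of 1.40 in WT and 2.47 in WDM and a median interaction of 1.09, and 0 passed even the unadjusted threshold. Their summed level was 4291, 2074 and 2602 CPM in WT granules and 1124, 3548 and 4426 CPM in WDM granules. WDM granule R1 was thus the lowest and WDM granule R3 the highest of the 6, and the lines overlapped. MT-ND6, a subunit of complex I, had 21.0, 3.75 and 18.3 CPM in WT granules and 5.47, 33.4 and 37.6 CPM in WDM granules. The list's median was 1.56 without WDM granule R1 and 0.517 without WDM granule R3.

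Among genes of granule biology, the scaffold and AU-rich lists had medians near 0, and processing-body genes had a median below 0. The 20 tested genes of stress granule scaffolds had 0.00068. G3BP1, a core scaffold of stress granules, had 582, 503 and 481 CPM in WT granules and 482, 665 and 657 CPM in WDM granules, which overlapped, and an interaction of 0.35. The 28 processing-body and decay genes had -0.166, and CNOT7, a deadenylase subunit, had 0.45. The 28 mRNAs with AU-rich elements had 0.00935, with CYCS, which encodes cytochrome c, at 0.51 and BCL2, an inhibitor of apoptosis, at -0.39. For the scaffold and AU-rich lists the sign turned when counts were scaled by library size alone, to -0.0385 and -0.0393. Leaving out a library gave -0.0715 (without WT granule R2) to 0.0813 (without WDM cytosol R1) for scaffolds and -0.0890 (without WT granule R3) to 0.154 (without WDM granule R1) for AU-rich mRNAs. For processing-body genes it gave -0.203 (without WT cytosol R1) to -0.0696 (without WDM cytosol R1).

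The remaining lists had medians that were mostly small. Those were 0.137 for 19 heat-shock chaperones, 0.0779 for 22 genes of the integrated stress response, 0.0756 for 25 splicing factors and CLK kinases, 0.0745 for 194 zinc-finger genes of chromosome 19 and -0.0479 for 31 centrosome and cilium genes. Small nucleolar RNA host genes had -0.142 over 23, RNAs of polymerase III and small structured RNAs -0.129 over 9, collagen genes -0.167 over 34 and SLC membrane transporters -0.000228 over 213. Leaving out 1 of the 12 libraries turned the sign for the splicing factors (-0.0229 to 0.257), the host genes (-0.225 to 0.124), the polymerase III RNAs (-0.476 to 0.360), the integrated stress response (-0.000278 to 0.185), the centrosome genes (-0.0853 to 0.0184), the SLC transporters (-0.0413 to 0.0416) and the HEK293 markers (-0.0518 to 0.191). The other medians of this paragraph kept their sign, from 0.0647 to 0.331 for heat-shock chaperones, 0.0381 to 0.126 for zinc-finger genes, -0.247 to -0.0726 for collagens and -0.418 to -0.197 for markers of other cell types. The 12 tested markers of the HEK293 line had -0.00511 and the 5 tested markers of other cell types -0.319. RN7SL3, a copy of the 7SL RNA of the signal recognition particle with near-identical relatives, had 15.4, 15.4 and 13.0 CPM in WT granules and 28.4, 32.3 and 34.4 CPM in WDM granules, and an interaction of 0.74. CHAC1, a glutathione-degrading enzyme of the integrated stress response, was higher in WDM cytosol by 1.44 (edgeR adjusted p 0.000724) and had an interaction of -0.77 (edgeR adjusted p 0.833).

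**Figure D5:**
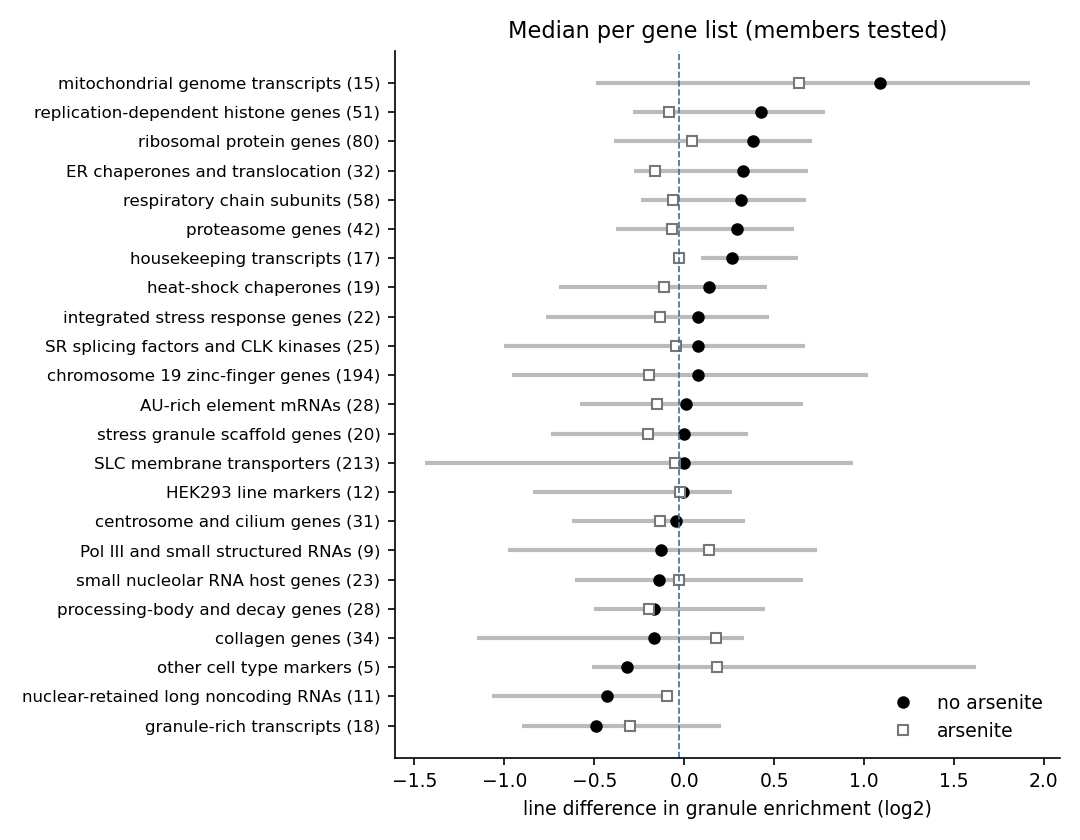
Median line difference in granule enrichment (log2) of each of the 23 gene lists without arsenite (black circles) and with arsenite (open squares), with the number of members tested in parentheses; grey bars run from the lowest to the highest member without arsenite, leaving out members at 3 counts or fewer in every library of a group, and the dashed line is the median of all genes, -0.0276. Mitochondrial transcripts lie at 1.09 and granule-rich transcripts at -0.490, and no list had a called member.

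The comparison was repeated in the arsenite libraries for all genes. Of the 929 genes with an unadjusted p under 0.05 without arsenite, 315 (33.9%) had the same sign with arsenite. Of 1200 such genes with arsenite (6.61% of those tested), 444 (37.0%) had the same sign without it. Over all 12762 genes of at least 5 CPM the share with the same sign was 45.2%. The count of 1200 was 396, 732 and 779 without WT arsenite granule R1, WT arsenite cytosol R3 or WDM arsenite granule R1, and 1902 without WT arsenite granule R2. Of 18141 genes tested, 48 passed in both, 16 of them with the same sign. The shares that passed singly were 5.12% without arsenite and 6.61% with it. With shares of that size a small overlap arises in any case, so the count of 48 is a description. Across 12762 genes of at least 5 CPM the values had a Pearson r of -0.083 and a Spearman rho of -0.114, and these contrasts share no library. CALCB was the one gene called in both.

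Among the genes on the same side in both, CDC14A, MGST1, ZDHHC24 and ZMAT5 were singled out after their values were seen. CDC14A, a dual-specificity phosphatase, had 26.0, 21.3 and 21.8 CPM in WT cytosol and 70.0, 59.8 and 62.3 CPM in WDM cytosol, and 50.9, 58.3 and 72.3 CPM in WT granules and 129, 110.2 and 113 CPM in WDM granules. Its interactions were -0.53 without and -0.49 with arsenite. MGST1, a microsomal glutathione transferase, had 42.9, 40.9 and 42.4 CPM in WT cytosol and 57.3, 59.2 and 61.3 CPM in WDM cytosol. In granules it had 42.9, 49.2 and 63.3 CPM in WT and 136, 96.2 and 109.9 CPM in WDM. Both fractions were thus higher in WDM without overlap, and the interactions of MGST1 were 0.63 and 0.48. ZDHHC24, of the palmitoyltransferase family, had 0.68 and 0.56, and ZMAT5, a protein of the minor spliceosome, 0.53 and 0.71. None of these was called in either set (edgeR adjusted p 0.741 to 0.833).

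The difference between the line differences with and without arsenite was tested as a three-way interaction. No gene was called by edgeR or by DESeq2, while 1451 genes (8% of those tested) had an unadjusted edgeR p under 0.05 and 1479 by DESeq2. The edgeR count was 815 without WT arsenite granule R1, 2458 without WT cytosol R1 and 2585 without WDM granule R1. For CALCB the difference was -0.97 (unadjusted edgeR p 0.0131, adjusted p 0.604), so a difference between the conditions was not called. The smallest p-values belonged to ADSS1, an adenylosuccinate synthase of muscle, to the pseudogene RCN1P2 and to JKAMP, a protein of the endoplasmic reticulum, with differences of 2.69, -1.59 and -1.17 (edgeR adjusted p 0.604). ADSS1 had 2.75 to 3.25 CPM in WT granules and 1.44 to 1.77 CPM in WDM granules without arsenite, and 3.96 to 9.80 and 7.22 to 11.6 CPM with it. RCN1P2 shares 85.9% of its exon length with TPT1-AS1 on the other strand. Of the 3 smallest p-values with arsenite, S100A13 and ZFPM1 followed CALCB, with 1.21 and 1.29 (edgeR adjusted p 0.741) beside 0.06 and -0.21 without arsenite.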

How the data were processed

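Stranded total RNA of 30 libraries was sequenced after ribosomal RNA removal, per the labels. The authors deposited 1 table, which holds unnormalised counts for each gene. Trimmomatic, STAR, Picard and featureCounts are named, with GRCh38, in the submitters' processing notes; versions, annotation release and strand setting are not given in the sources used here. Of 60664 genes, 60463 were found in GENCODE v44, 56693 with identical start and end.

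The 24 tetracycline libraries (8 groups) were fitted together with edgeR 4.0.16 in R 4.3.3: filterByExpr (minimum count 10, minimum total 15), TMM scaling, robust quasi-likelihood F-test, Benjamini-Hochberg adjustment over all genes, calls at 0.05. CPM are TMM-scaled. The biological coefficient of variation was 0.145. Intervals are 95% and cover the spread between libraries; a floor of 3 counts covers counting error only. The fit of the interaction without arsenite was tested on simulated data, and the other 6 contrasts were not. Of 50 genes averaging over 5 CPM and given a log2 difference of 0.5, 1 was called in the right direction. For differences of 1 and 2 it was 30 and 48 of 50, and 2 unchanged genes were called. All changed genes were simulated in a single run, and they had over 1 CPM in every group. Many true differences make the adjusted threshold easier to reach than in the data, where 1 gene was called. These shares can therefore overstate the recovery in the data, and a gene that was not called can still differ. Plots were drawn with matplotlib 3.10.9 from tables made in Python 3.11.15 (numpy 2.4.6, pandas 2.3.3).

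Named genes: up to 12 called per direction by size, filled by smallest p to 6 per direction, that carry a symbol and average 5 CPM or more in a group; the 3 smallest p of the other interactions; TIA1 and TIAL1; of each list up to 4 called members, otherwise the 2 of smallest p, not all of which are printed (1 result is not reported here). Members and lists were chosen with earlier results of these data known. Pseudogenes that the naming pattern of ribosomal proteins caught were removed after values were seen. Results were recomputed with DESeq2 1.42.0, with RLE or library-size scaling, unfiltered, with a replicate block, with a length offset, on only the libraries compared, and without each library in turn.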

Additional observations from a re-analysis of the deposited data

Results flagged for a closer look

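CALCB was the gene called in both sets of libraries by a test of the line difference in granule enrichment itself. Its interaction was 2.61 without arsenite, with WDM granule libraries at 28.9 to 38.8 CPM and WT granule libraries at 3.93 to 5.33 CPM, and every one of the 3 WDM libraries was above the 3 WT libraries (edgeR adjusted p 1.65e-06). With arsenite the interaction was 1.64, again with all 3 WDM granule libraries above the 3 WT ones (edgeR adjusted p 0.0086).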

How the results depend on the processing

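The interaction without arsenite gave 1 call with TMM, RLE, the length offset and only the libraries compared, and 2 with library size alone, no filter on low counts, the replicate block and DESeq2. The additional call was COL5A2, or TMEM106B with no filter. Why it appeared was not tested, except that the filter changed the number of genes tested. Leaving out a library gave 1 to 1 calls without arsenite, 0 to 2 with arsenite, 0 to 0 for the three-way interaction, 786 to 1949 between granules, 527 to 1739 between cytosols, 13053 to 13848 for WT enrichment and 12031 to 12731 for WDM enrichment. Fitting only the libraries compared gave 859 granule calls in place of 1436. Scaling by library size alone moved the median three-way interaction of all genes from 0.00938 to 0.111.

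Whether replicate numbers pair the libraries was not settled. Of 18 same-numbered pairs without arsenite, 6 had a correlation of deviations over 0.1, and values ran from -0.23 to 0.351. Between the cytosols of the lines it was 0.351 for R1, 0.275 for R2 and -0.0736 for R3. Pairs with different numbers ran from -0.445 to 0.287, and several of them were also over 0.1. Among these, WDM cytosol R2 with WT cytosol R3 had 0.287, and WDM granule R1 with WT granule R2 had 0.185. The replicate block gave 2 calls in place of 1 and 1281 genes at an unadjusted p under 0.05 in place of 929. A fit with the block on only the libraries compared, chosen after seeing the data, gave 1 call.

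Of 1288 values of named genes under an alternative, 1283 kept their direction and their side of the threshold, 4 passed it and 1, CALCB with arsenite, lost it. Of 184 list medians under an alternative other than leaving out a library, 168 kept their sign, and the 16 that changed belonged to 5 lists with medians near 0. Depth limits genes near 3 counts in a library, and 1137 of 18141 tested genes had a group at 3 counts or fewer in each library.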
